A study of Mus musculus with 9 samples.

Results

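The respiratory chain and ATP synthase subunits are the proteins that make up complexes I to V of the mitochondrial inner membrane, and their transcripts are described here in cultured mouse pancreatic stellate cells. They were taken by a rule on gene symbols, and earlier results of these data were known when they were chosen. The rule covers rows starting with Nduf (Ndufaf left out), Uqcr, Atp5 or Cox4 to Cox8. It also covers the rows Sdha, Sdhb, Sdhc, Sdhd and Cyc1, and the protein genes of the mitochondrial genome. This rule took 99 rows of the 17156 genes deposited. They comprised 81 nuclear subunits, 13 mitochondrial subunits and 5 rows that share the name but code for no subunit. Those 5 were Ndufa4l2, Atp5s, Atp5sl, Cox4nb and the pseudogene Atp5l-ps1, and they are counted apart from the subunits. A filter on low counts kept 97 of the 99 rows and 13613 genes in all; the muscle isoform Cox8b, with at most 3 counts in a library, and Atp5l-ps1 did not pass it.

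Pancreatic stellate cells are fibroblast-like cells of the pancreas that lay down matrix in injury and around tumours. The cells were wild-type lines of C57BL/6J origin, cultured for 4 days with 3 libraries per condition. CM-JAKi cells received medium conditioned by pancreatic tumour organoids with 500 nM AZD1480, an inhibitor of JAK kinases. CM cells received such medium without the inhibitor, and MG-CM cells a control medium of DMEM with 5% FBS. The line PSC4 gave replicate 1 of every condition, PSC5-I gave replicate 2 and PSC5-II replicate 3 (both PSC5 here), and each replicate number had its own source of conditioned medium. Line and source of conditioned medium therefore cannot be told apart between PSC4 and PSC5 in CM and CM-JAKi.

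The libraries held 25625806 to 32466018 counts each, with 15678 to 15944 genes detected per library. Levels are given as CPM, that is counts relative to library size, adjusted between libraries by TMM, a scaling that assumes most genes do not change. They are not divided by transcript length, so levels are compared between libraries and not between genes. All 12 stellate and fibroblast markers were present, with a summed level of 7805 to 9867 CPM in CM-JAKi, 5299 to 8540 CPM in CM and 6734 to 7387 CPM in MG-CM. Des was the lowest of them, at 0.924 to 3.32 CPM, and Acta2 ranged from 8.73 to 664 CPM. Of the 12, 1 was called higher and 1 lower in CM against MG-CM, and 3 higher and 1 lower in CM-JAKi against CM. Leukocyte markers, of which 7 of 10 were in the table, summed to 15.9 to 32.6 CPM in CM-JAKi, 34.0 to 118 CPM in CM and 22.8 to 34.9 CPM in MG-CM. Most of that sum was Cd14, at 12.8 to 114 CPM, while the pan-leukocyte marker Ptprc stayed at or below 0.0387 CPM. Among the 4 leukocyte markers tested, 1 was called lower in CM-JAKi against CM. Endothelial markers (7 of 8 in the table) summed to 8.93 to 16.2 CPM in CM-JAKi, 3.15 to 4.62 CPM in CM and 6.18 to 8.47 CPM in MG-CM. Among the 5 tested, 2 were called lower in CM against MG-CM, 2 higher in CM-JAKi against CM and 1 higher in CM-JAKi against MG-CM. Emcn reached 12.8 CPM, Tek 2.90, Kdr 2.47 and Vwf 2.30 CPM. Pecam1, Cdh5 and Cldn5 stayed at or below 0.527, 0.521 and 0.0695 CPM. Schwann and neural markers (6 of 6) summed to 125 to 136 CPM in CM-JAKi, 73.3 to 137 CPM in CM and 160 to 187 CPM in MG-CM, nearly all of it Ncam1 and Tubb3, with Sox10 at or below 0.232 CPM. Among the 4 of them tested, 1 was called higher in CM-JAKi against CM. Acinar and endocrine markers (5 of 10) summed to 5.66 to 7.89 CPM in CM-JAKi, 9.56 to 14.1 CPM in CM and 7.31 to 8.53 CPM in MG-CM, nearly all of it Cela1. The 1 marker of this list that was tested was called lower in CM-JAKi against CM. Epithelial and ductal markers (9 of 10) summed to 28.6 to 45.0 CPM in CM-JAKi, 34.4 to 37.0 CPM in CM and 34.5 to 49.2 CPM in MG-CM. Of the 6 tested, 1 was called lower in CM-JAKi against CM. Sox9, Krt19 and Muc1 reached 26.1, 25.1 and 16.5 CPM, while Epcam and Cdh1 stayed at or below 0.180 and 0.209 CPM. The part of other cell types in the results was not tested. Bulk RNA cannot tell fewer cells of a type from less RNA per cell.

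Complexes I and II pass electrons from NADH and succinate to coenzyme Q, complex III passes them to cytochrome c and complex IV to oxygen. Complexes I, III and IV pump protons, and complex V, the ATP synthase, uses the resulting gradient to make ATP. All complexes except II combine subunits coded in the nucleus with subunits coded in mitochondrial DNA. Complex IV also has tissue-specific isoforms of several nuclear subunits, among them Cox4i2 of lung and low-oxygen settings, Cox6a2 and Cox7a1 of heart and skeletal muscle, and Cox6b2 of testis. Ndufa4, first assigned to complex I and now placed in complex IV, has a paralogue, Ndufa4l2, that is known as a target of the hypoxia factor HIF-1.

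Most subunits of the 5 complexes had nearly the same level in all 3 media, and the larger differences lay in a few lowly expressed isoforms and in Uqcrq. In CM against MG-CM, 88 of the 93 subunits kept by the filter had a log2 fold change within 0.5 of 0, or 94.6%, beside 77.4% of all genes tested. For CM-JAKi against CM it was again 88 of 93, beside 73.2% of all genes. For CM-JAKi against MG-CM it was 90 of 93, beside 86.8% of all genes. The subunits outside that range in the first and the second of these comparisons were Cox4i2, Cox6a2, Cox6b2, Uqcrq and mt-Nd4l, and in the last Cox6a2, Cox6b2 and mt-Nd4l. The standard error of a log2 change had a median of 0.12 over the subunits in each of the 3 comparisons, so changes of about that size could not be resolved. Over all genes tested the median standard error was larger, at 0.15 in each comparison. The shares within 0.5 also depend on that error, and its part in the difference was not tested.

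A gene counts as called where edgeR's quasi-likelihood test gave it an adjusted p under 0.05. In CM against MG-CM, 2 of the 97 rows rose, Ndufa4l2 and Uqcrq, and 0 fell; of all genes 10.2% were called, 4.85% higher and 5.39% lower. By unadjusted p under 0.05, 4 of the 93 subunits were higher and 6 lower, 10 in all, beside 28.3% of all genes. DESeq2 called 4 of the 97 rows higher and 3 lower, beside 17.2% of all genes. CM-JAKi against CM gave 3 rows that rose, Atp5s, Ndufb2 and Atp5k, and 3 that fell, Ndufa4l2, Cox6a2 and Uqcrq. Of all genes 19% were called there, 10.1% higher and 8.93% lower. DESeq2 called 8 rows higher and 3 lower, beside 23.8% of all genes, and 17 of 93 subunits had an unadjusted p under 0.05, beside 34.4%. No row was called in CM-JAKi against MG-CM (edgeR 0, DESeq2 0). Of all genes edgeR called 1.01% there, 0.286% higher and 0.72% lower, and DESeq2 called 3.56%. At an unadjusted p under 0.05 it was 1 subunit, beside 10.7% of all genes.

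For some subunits the libraries of the compared groups did not overlap. In CM against MG-CM 3 of the 93 lay wholly above and 4 wholly below, beside 16% and 16.8% of all genes. For CM-JAKi against CM it was 21 above and 3 below, beside 20.1% and 18.3%. In CM-JAKi against MG-CM it was 5 above and 1 below, beside 8.87% and 8.24%. The first and second comparisons share the CM libraries, so a CM value that is off by chance moves both in opposite directions.

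A fit with the replicate number as a block, which removes the shared line and medium source, called more rows. It gave 3 rows higher and 8 lower in CM against MG-CM, where it called 11.6% and 12.8% of all genes. For CM-JAKi against CM it gave 24 higher and 3 lower, that is 24.7% and 3.09% of the 97 rows, where it called 18.6% and 15.6% of all genes. For CM-JAKi against MG-CM it gave 0 and 0 rows, where it called 1.85% of all genes higher and 2.4% lower (4.25% in all). By complex, the 22 subunits it called higher in CM-JAKi against CM were 10 of 36 nuclear subunits of complex I, 2 of 4 of complex II, 3 of 9 of complex III, 3 of 16 of complex IV, 3 of 15 of complex V, and mt-Nd3. Its 24 higher rows were mostly small shifts. Those that neither the main edgeR fit nor DESeq2 called had log2 changes of 0.21 to 0.39 (Ndufa3), except mt-Nd3 at 0.49 and Cox6b2 at 1.48. The lowest were Uqcrc1 and Cox4nb, whose product belongs to a complex of the endoplasmic reticulum.

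**Figure D1:**
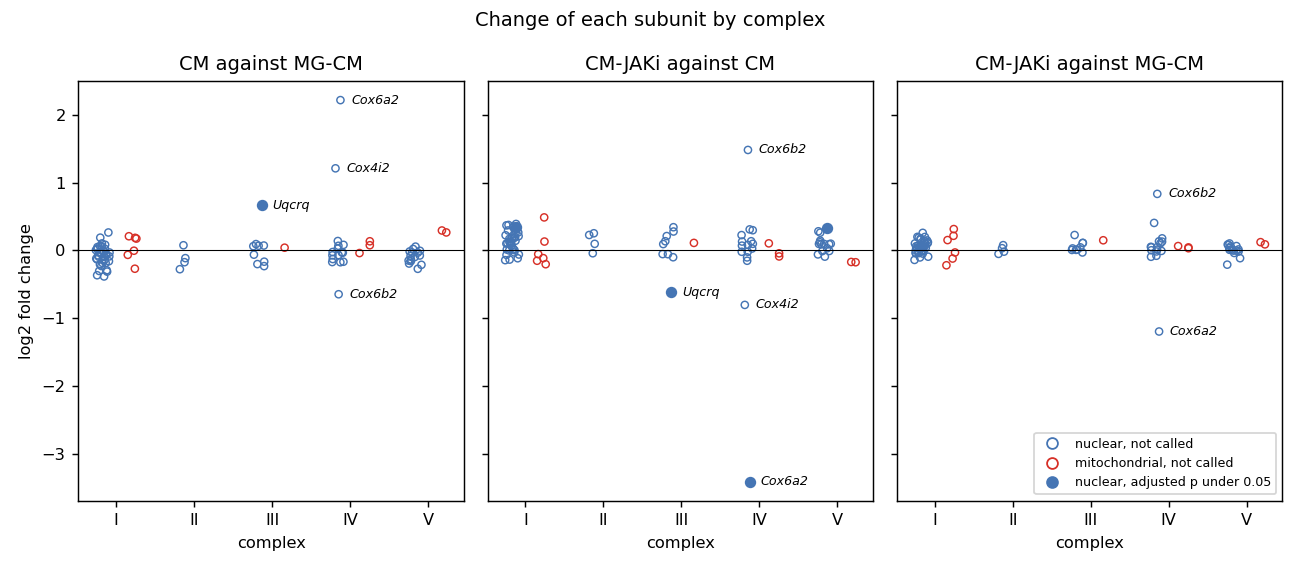
Log2 fold change of each subunit kept by the filter (y axis) by complex (x axis), in the 3 comparisons of media. Blue circles are nuclear and red circles mitochondrial subunits, filled where the adjusted p was under 0.05; mt-Nd4l is left out because 3 libraries list it at 0. Most circles lie within 0.5 of 0, and the named ones are isoforms of complex IV and Uqcrq.

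Taken by origin, the nuclear subunits had a median log2 change of -0.07 in CM against MG-CM. The median was 0.10 in CM-JAKi against CM, and 0.04 when CM-JAKi was set against MG-CM. All genes tested had medians of 0.0058, 0.0080 and 0.0054 in the same comparisons. The nuclear median of CM-JAKi against CM was positive in each replicate pair, at 0.10, 0.15 and 0.07, and 45 of the 80 subunits kept were higher in CM-JAKi in all 3 pairs while 8 were lower in all 3. Of all genes tested 33.3% were higher in all 3 pairs and 31.2% were lower in all 3. In CM against MG-CM the pairs gave 0.08, -0.24 and -0.02, so the nuclear median there had no common direction. Of the 80 subunits 5 were higher in CM in all 3 pairs and 29 were lower in all 3. The shares of all genes were 28.3% and 29.3%. Without MG-CM replicate 1 the nuclear median of CM-JAKi against MG-CM was -0.04, and without CM-JAKi replicate 3 it was -0.02.

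The mitochondrial subunits had medians of 0.08, -0.09 and 0.06 in the same order of comparisons. Their pairs gave -0.11, 0.24 and 0.16 in CM against MG-CM and 0.09, -0.15 and -0.07 in CM-JAKi against CM, so PSC4 went the other way from both PSC5 pairs in these comparisons. In CM-JAKi against MG-CM the pairs gave 0.13, 0.08 and 0.12, on the same side for both lines. With libraries scaled by size alone the median of all genes in CM-JAKi against CM became 0.103. The nuclear median was then 0.193, still above that of all genes, and the mitochondrial one 0.0019, still below it.

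Summed over all 81 nuclear subunits the level was 8458 ± 589 CPM in CM-JAKi, 7917 ± 558 CPM in CM and 8341 ± 1012 CPM in MG-CM (SD, n = 3 each). Summed over the 13 mitochondrial subunits it was 18242 ± 564 CPM in CM-JAKi, 18431 ± 1917 CPM in CM and 17492 ± 756 CPM in MG-CM. The differences between conditions were smaller than the larger of the SDs, and the groups overlapped in both sums. Within replicate numbers the nuclear sum was higher in CM-JAKi than in CM in 3 of 3 pairs, at 7855, 8487 and 9032 CPM in CM-JAKi and 7615, 7575 and 8561 CPM in CM. PSC4 had the lowest nuclear sum in CM-JAKi and MG-CM. Mitochondrial subunits took 1.53% to 1.90% of all counts in a library.

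**Figure D2:**
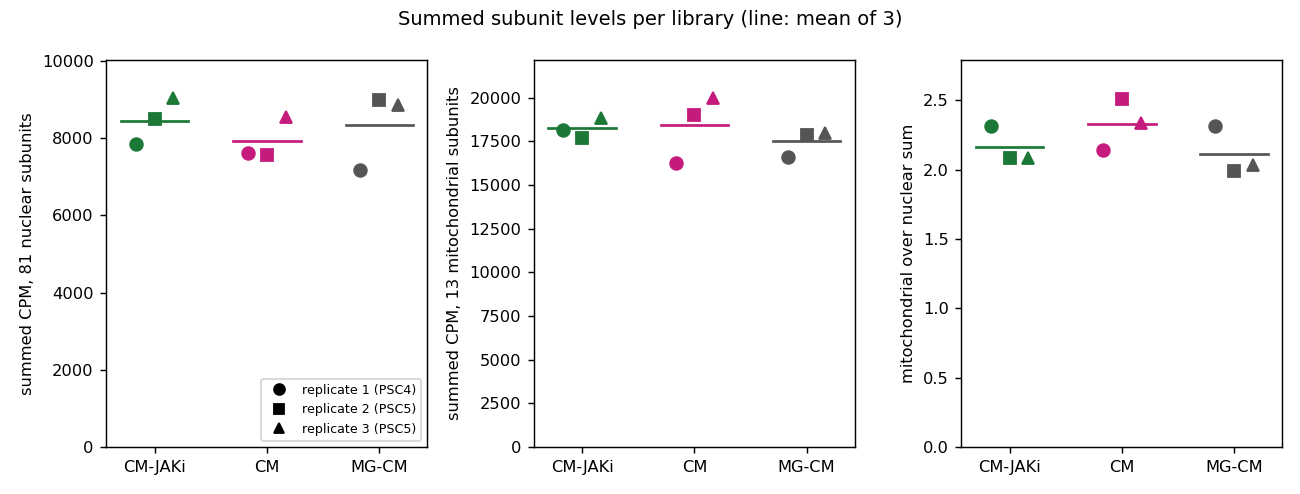
Summed CPM of the 81 nuclear subunits (left), of the 13 mitochondrial subunits (middle) and the ratio of these sums (right) in each library of CM-JAKi, CM and MG-CM. Circles are replicate 1 (PSC4), squares and triangles replicates 2 and 3 (PSC5), and lines are means of 3; the 3 conditions overlap in every panel.

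Complex I takes electrons from NADH and is built from a peripheral arm, where catalysis takes place, and a membrane arm. Its 36 nuclear subunits had a median log2 change of -0.07 in CM against MG-CM, with 0 called by edgeR. An unadjusted p under 0.05 took in 1 that was higher and 4 that were lower, beside 1895 and 1956 of all 13613 genes. DESeq2 called 0 higher and 2 lower, beside 17.2% of all genes in either direction. The block fit called 0 higher and 6 lower, beside 11.6% and 12.8% of all genes. In CM-JAKi against CM the median was 0.13, with 29 positive and 7 negative, 1 called higher and 0 lower. The block fit called 10 of the 36 higher there, beside 18.6% of all genes. The catalytic core moved little: Ndufv1, which binds NADH, had 135, 148 and 152 CPM in CM-JAKi, 126, 136 and 145 CPM in CM and 126, 146 and 149 CPM in MG-CM. The iron-sulfur subunit Ndufs1 lay between 91.6 and 105 CPM in all 9 libraries, with log2 changes of 0.02 ± 0.07 in CM against MG-CM and -0.03 ± 0.07 in CM-JAKi against CM.

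The called subunit was Ndufb2, an accessory subunit of the membrane arm. It had 33.9, 33.9 and 30.4 CPM in CM-JAKi, 23.4, 26.1 and 27.6 CPM in CM and 30.9, 34.7 and 30.2 CPM in MG-CM. CM was the low group and overlapped neither of the other conditions. The log2 change was 0.35 ± 0.10 in CM-JAKi against CM (SE; edgeR adjusted p = 0.0396). That call was lost when any single library was left out, with adjusted p of 0.0502 to 0.140. In CM against MG-CM it was -0.31 ± 0.10 (adjusted p = 0.0779, 0.0426 with the block and 0.0341 by DESeq2). Ndufb11, another membrane-arm subunit, had a similar layout with 82.2, 61.0 and 66.3 CPM in CM-JAKi, 56.4, 52.9 and 56.5 CPM in CM and 69.8, 77.8 and 69.0 CPM in MG-CM. Again CM was below both other groups without overlap, but neither change passed the edgeR threshold (log2 change -0.39 ± 0.11, adjusted p = 0.0647 against MG-CM, and 0.34 ± 0.11, adjusted p = 0.0698 for CM-JAKi against CM). The block fit called both, with adjusted p of 0.0388 against MG-CM and 0.04998 for CM-JAKi against CM, and so did DESeq2, with adjusted p of 0.0232 and 0.0480.

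Complex II joins the citric acid cycle to the chain by oxidising succinate, and all of its 4 subunits are nuclear. Sdha, the flavoprotein that holds the active site, had 198, 226 and 213 CPM in CM-JAKi, 161, 186 and 197 CPM in CM and 197, 236 and 227 CPM in MG-CM. The CM libraries were lowest within each replicate number. The log2 change was -0.28 ± 0.11 in CM against MG-CM (adjusted p = 0.133, and 0.0241 with the block) and 0.23 ± 0.11 in CM-JAKi against CM (adjusted p = 0.175, and 0.0350 with the block). Sdhc, a membrane anchor, had 97.8, 93.1 and 90.7 CPM in CM-JAKi, 76.8, 75.3 and 84.6 CPM in CM and 84.7, 95.7 and 86.7 CPM in MG-CM. CM lay below both other groups without overlap, with a log2 change of 0.25 ± 0.08 in CM-JAKi against CM (adjusted p = 0.0605, 0.0436 with the block and 0.0273 by DESeq2). The iron-sulfur subunit Sdhb lay between 82.5 and 97.0 CPM throughout and was called in no comparison.

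Complex III passes electrons from reduced coenzyme Q to cytochrome c. Of its 9 nuclear subunits Uqcrq, a small accessory subunit, was the only one called. Its level was 35.8, 33.9 and 39.8 CPM in CM-JAKi, 61.3, 61.7 and 45.0 CPM in CM and 28.8, 35.5 and 41.9 CPM in MG-CM. All 3 CM libraries were above all others, although CM replicate 3 exceeded MG-CM replicate 3 by little. Uqcrq rose by a log2 change of 0.66 ± 0.16 in CM against MG-CM (adjusted p = 0.0376) and fell by 0.62 ± 0.16 in CM-JAKi against CM (adjusted p = 0.0321). The first call held in 3 of 9 fits that each left out a library and missed in a fit of the compared groups alone (adjusted p = 0.0761). The second also held in 3 of 9. The first was lost without CM-JAKi replicate 2 or 3, CM replicate 1 or 2, or MG-CM replicate 1 or 2, and the second without any CM-JAKi replicate, CM replicate 1 or 2, or MG-CM replicate 2, with adjusted p up to 0.128 and 0.112. The gene overlaps Gdf9 on the opposite strand in the RefSeq annotation; Gdf9 was at 0.8004 to 0.967 CPM in CM-JAKi, 0.403 to 0.487 CPM in CM and 0.455 to 0.812 CPM in MG-CM. The catalytic subunits were not called. Cyc1, cytochrome c1, had 83.6, 95.2 and 98.4 CPM in CM-JAKi, 94.0, 99.5 and 104 CPM in CM and 75.4, 98.8 and 109 CPM in MG-CM. Uqcrfs1, the Rieske iron-sulfur protein, had log2 changes of -0.06 ± 0.12 in CM against MG-CM and 0.09 ± 0.12 in CM-JAKi against CM. Uqcrc1, a core subunit, had 134, 151 and 157 CPM in CM-JAKi, 123, 125 and 135 CPM in CM and 127, 154 and 159 CPM in MG-CM. Its change of 0.21 ± 0.11 in CM-JAKi against CM missed the edgeR threshold (adjusted p = 0.198). It was called with the block (adjusted p = 0.0487) and with a term for cell line (0.0496).

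Complex IV reduces oxygen to water, and its isoforms and paralogues gave the largest changes among the rows, mt-Nd4l left aside. The coding sequences of Ndufa4l2 and Ndufa4 are shown because counting must separate the paralogues: they were 68.6% identical over 245 aligned bases (GENCODE M21 transcripts, Ndufa4l2 on chromosome 10 and Ndufa4 on chromosome 6). The capitals mark the longest stretch that both hold without a mismatch, 28 bases long.
Ndufa4l2: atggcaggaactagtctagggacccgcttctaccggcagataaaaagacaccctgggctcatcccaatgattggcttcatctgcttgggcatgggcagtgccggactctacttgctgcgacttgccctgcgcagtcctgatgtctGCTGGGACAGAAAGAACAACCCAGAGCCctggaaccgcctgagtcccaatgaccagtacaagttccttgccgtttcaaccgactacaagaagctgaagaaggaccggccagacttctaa
Ndufa4: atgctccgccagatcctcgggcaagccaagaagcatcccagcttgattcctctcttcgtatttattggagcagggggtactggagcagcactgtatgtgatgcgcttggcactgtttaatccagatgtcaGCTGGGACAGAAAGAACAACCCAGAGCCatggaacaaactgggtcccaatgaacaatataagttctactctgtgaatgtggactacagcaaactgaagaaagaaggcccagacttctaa
Outside that stretch the sequences share no run of 25 bases, so reads that cover more of the coding sequence differ between the genes. Cox4i2, Cox6a2, Cox6b2 and Cox7a1 were 63.8% to 69.2% identical to their common isoforms and shared 0 runs of 25 bases with them.

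Ndufa4l2 was low in every library, but about 4-fold higher in CM than in MG-CM. It had 0.215, 0.1496 and 0.309 CPM in CM-JAKi, 1.88, 1.05 and 1.15 CPM in CM and 0.274, 0.372 and 0.303 CPM in MG-CM. These levels rest on 7, 5 and 8 counts in CM-JAKi, 54, 34 and 35 in CM and 8, 11 and 8 in MG-CM. The CM libraries stood clear of the other 6, which overlapped each other. Ndufa4l2 rose by a log2 change of 2.08 ± 0.37 in CM against MG-CM (adjusted p = 0.0147), and fell by 2.59 ± 0.38 in CM-JAKi against CM (adjusted p = 0.00384). The fall kept its call whichever library was left out, and the rise lost it only without MG-CM replicate 2 (log2 change 2.22, adjusted p = 0.0639). CM-JAKi against MG-CM gave -0.51 ± 0.41 (adjusted p = 0.778). Ndufa4 itself had 115, 120 and 128 CPM in CM-JAKi, 92.3, 90.7 and 110 CPM in CM and 91.3, 124 and 116 CPM in MG-CM, so it was not higher in CM. Its log2 change of 0.31 ± 0.13 in CM-JAKi against CM missed the edgeR threshold (adjusted p = 0.122). It was called with the block (adjusted p = 0.0411), with a term for cell line (0.0384) and with library size alone (0.0438).

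Ndufa4l2 overlaps Shmt2, the mitochondrial serine hydroxymethyltransferase, on the opposite strand, and Shmt2 is given here for that reason after its values were seen. Shmt2 had 115, 137 and 160 CPM in CM-JAKi, 386, 345 and 239 CPM in CM and 132, 156 and 200 CPM in MG-CM. It rose by 0.99 ± 0.22 in CM against MG-CM (adjusted p = 0.0252) and fell by 1.24 ± 0.22 in CM-JAKi against CM (adjusted p = 0.00734), the same directions as Ndufa4l2. Counts of Ndufa4l2 were 0.187%, 0.110% and 0.193% of those of Shmt2 in CM-JAKi, 0.487%, 0.305% and 0.480% in CM and 0.208%, 0.239% and 0.152% in MG-CM. By these point values the ratio was higher in all CM libraries than in any other. It rests on few counts of Ndufa4l2. The 95% limits of that count were 23.5 to 47.5 in CM replicate 2 and 5.49 to 19.7 in MG-CM replicate 2. Whether their ratios of 0.305% and 0.239% differ beyond counting error was not tested. The library kit marks strand, but whether counting used it is not given in the sources used here.

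Cox4i2, the low-oxygen isoform of subunit IV, had 1.11, 2.63 and 1.04 CPM in CM-JAKi, 3.48, 2.51 and 2.43 CPM in CM and 1.2004, 1.25 and 1.17 CPM in MG-CM. All CM libraries were about double the MG-CM ones or more, while CM-JAKi replicate 2 lay at the CM level and the other CM-JAKi libraries at the MG-CM level. The log2 change in CM against MG-CM was 1.21 ± 0.37 (adjusted p = 0.0735, 0.0412 with the block and 0.0262 by DESeq2). For CM-JAKi against CM it was -0.81 ± 0.37 (adjusted p = 0.157), and without CM-JAKi replicate 2 it was -1.38 (adjusted p = 0.0297). The common isoform Cox4i1 lay between 263 and 307 CPM in all 9 libraries. Cox4i2 overlaps Bcl2l1 on the opposite strand, at 66.0 to 87.9 CPM in all 9 libraries and with log2 changes of -0.03 and -0.01 in the first and second comparisons.

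**Figure D3:**
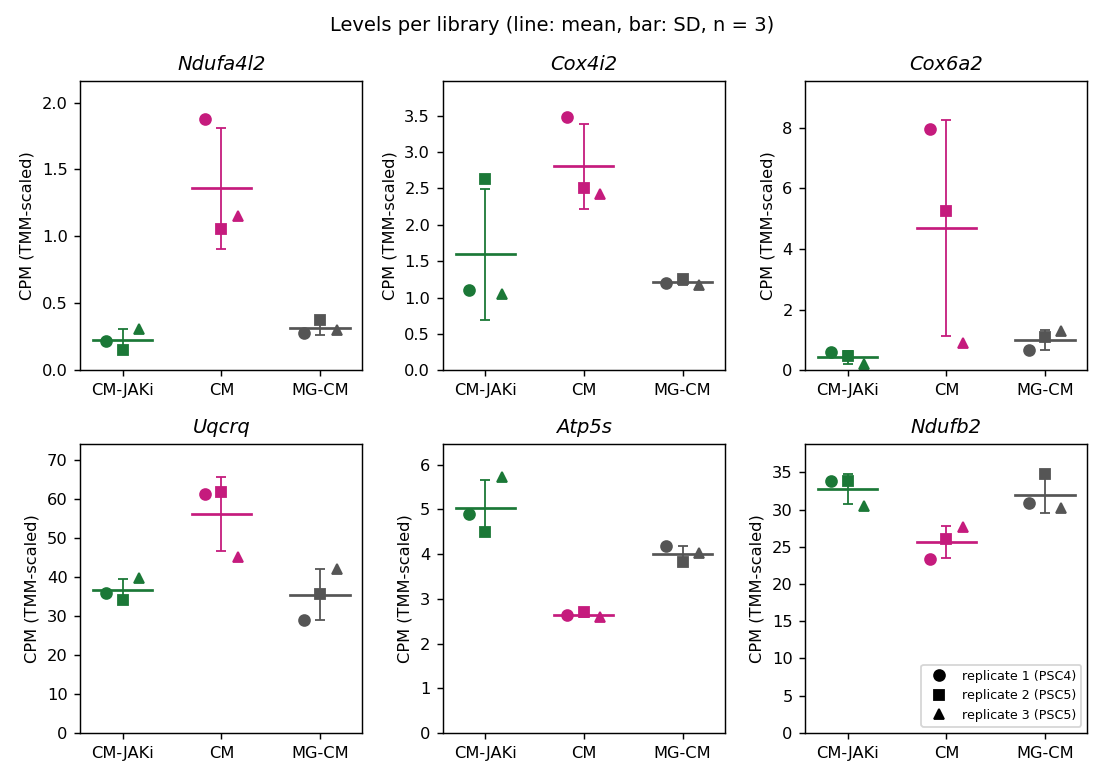
Level in CPM (y axis, from 0) of Ndufa4l2, Cox4i2, Cox6a2, Uqcrq, Atp5s and Ndufb2 in each library of CM-JAKi, CM and MG-CM. Circles are replicate 1 (PSC4), squares and triangles replicates 2 and 3 (PSC5), lines are means and bars SDs of 3; Ndufa4l2 and Uqcrq are highest and Atp5s and Ndufb2 lowest in the CM libraries, and CM replicate 3 of Cox6a2 lies among the MG-CM values.

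Cox6a2, the muscle isoform of subunit VIa, had 0.616, 0.479 and 0.193 CPM in CM-JAKi, 7.96, 5.24 and 0.886 CPM in CM and 0.652, 1.083 and 1.29 CPM in MG-CM. CM replicates 1 and 2 were high, while CM replicate 3 lay among the MG-CM libraries. Cox6a2 fell by 3.42 ± 0.76 on the log2 scale in CM-JAKi against CM (adjusted p = 0.0180), lower in 3 of 3 pairs. The call was lost without CM-JAKi replicate 2 (adjusted p = 0.0677) or replicate 3 (adjusted p = 0.0573). CM against MG-CM gave 2.22 ± 0.71 (adjusted p = 0.0820, 0.0884 with the block and 0.0142 by DESeq2), higher in 2 of 3 pairs. Without CM replicate 3 that change was 2.71 (adjusted p = 0.0177). Markers of striated muscle, of which 5 of 9 were in the table, summed to 0.387 to 0.708 CPM in CM-JAKi, 0.174 to 0.558 CPM in CM and 0.303 to 0.789 CPM in MG-CM, and Acta1 and Mb stayed at or below 0.155 and 0.0686 CPM. Cox6a2 overlaps the integrin gene Itgad on the opposite strand, and Itgad has no row in the table. The common isoform Cox6a1 had 171, 159 and 177 CPM in CM-JAKi, 127, 138 and 148 CPM in CM and 135, 165 and 163 CPM in MG-CM. Its log2 change of 0.30 ± 0.10 in CM-JAKi against CM missed the edgeR threshold (adjusted p = 0.0773) and passed with the block (adjusted p = 0.0287) and by DESeq2 (adjusted p = 0.0477).

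Cox6b2, the testis isoform of subunit VIb, had 0.523, 1.02 and 0.851 CPM in CM-JAKi, 0.139, 0.279 and 0.427 CPM in CM and 0.309, 0.609 and 0.417 CPM in MG-CM. CM-JAKi lay above CM without overlap, on 17, 34 and 22 counts against 4, 9 and 13. The log2 change was 1.48 ± 0.46 (adjusted p = 0.0554, and 0.0129 with the block), and CM against MG-CM gave -0.65 ± 0.48 (adjusted p = 0.424). Its common counterpart Cox6b1 had 91.6, 96.7 and 109 CPM in CM-JAKi, 79.0, 80.5 and 94.7 CPM in CM and 80.8, 106 and 99.5 CPM in MG-CM. The muscle isoform Cox7a1 had 5 to 16 counts in a library, in overlapping ranges, and no comparison called it. Cox7a2, Cox7a2l and Cox8a were called in none of the 3 comparisons either, with log2 changes between -0.13 and 0.13. Within the pair of Cox4i2 and Cox4i1, not scaled for length, Cox4i2 made up 0.359% to 0.899% of counts in CM-JAKi, 0.861% to 1.14% in CM and 0.406% to 0.432% in MG-CM.

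Complex V, the ATP synthase, turns the proton gradient into ATP. Its 15 nuclear subunits had a median log2 change of -0.08 in CM against MG-CM and 0.09 in CM-JAKi against CM. Atp5b, which holds the catalytic sites together with Atp5a1, had 922, 1167 and 1314 CPM in CM-JAKi, 992, 979 and 1218 CPM in CM and 882, 1214 and 1318 CPM in MG-CM. The groups overlapped, with log2 changes of -0.10 ± 0.19 in CM against MG-CM and 0.09 ± 0.19 in CM-JAKi against CM. For Atp5a1 they were -0.08 ± 0.16 and 0.09 ± 0.16. Atp5g1, Atp5g2 and Atp5g3 code for the same subunit of the membrane ring, and none was called in the 3 comparisons, with log2 changes between -0.21 and 0.12.

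Atp5k, subunit e of the membrane part, had 66.5, 64.1 and 61.6 CPM in CM-JAKi, 50.2, 45.9 and 56.2 CPM in CM and 56.4, 66.1 and 61.6 CPM in MG-CM. CM was the low group, with its highest library just under the lowest of MG-CM. Atp5k rose by a log2 change of 0.34 ± 0.10 in CM-JAKi against CM (adjusted p = 0.0417), a call that held in 2 of 9 fits with a library left out. It was lost without any CM-JAKi replicate, CM replicate 1 or 2, or MG-CM replicate 2 or 3, with adjusted p up to 0.122. CM against MG-CM gave -0.27 ± 0.10 (adjusted p = 0.105).

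Atp5s, named for the synthase but now listed as a distal membrane-arm assembly component-like protein, had the smallest p of the rows that rose in CM-JAKi against CM. It had 4.89, 4.49 and 5.72 CPM in CM-JAKi, 2.64, 2.70 and 2.59 CPM in CM and 4.18, 3.82 and 4.02 CPM in MG-CM. The 3 conditions did not overlap, with CM lowest and CM-JAKi highest. The log2 change was 0.93 ± 0.17 in CM-JAKi against CM (adjusted p = 0.00789), called whichever library was left out. CM against MG-CM gave -0.60 ± 0.17 (adjusted p = 0.0539, 0.0281 with the block and 0.0182 by DESeq2), lower in 3 of 3 pairs. CM-JAKi against MG-CM gave 0.33 ± 0.16 (adjusted p = 0.544).

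The windows of 300 bases around the annotated starts of Ndufb2 and Atp5k are shown because these were the subunits called higher in CM-JAKi than in CM (RefSeq, GRCm38.p6). Capitals mark the motifs found by a search of both strands: AAGGTCA, the core site of the oestrogen-related receptors (ERR), and the palindrome of the nuclear respiratory factor NRF1. Ndufb2 lies at chr6:39592315-39592614 on the plus strand and holds 1 ERR site and 0 NRF1 sites. Atp5k lies at chr5:108434350-108434649 on the minus strand and holds 1 of each.
Ndufb2: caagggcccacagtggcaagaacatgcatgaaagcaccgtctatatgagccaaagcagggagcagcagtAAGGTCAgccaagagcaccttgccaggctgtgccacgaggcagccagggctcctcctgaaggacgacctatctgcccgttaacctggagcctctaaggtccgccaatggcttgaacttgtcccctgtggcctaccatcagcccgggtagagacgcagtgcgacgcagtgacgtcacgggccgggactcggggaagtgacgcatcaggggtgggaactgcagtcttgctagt
Atp5k: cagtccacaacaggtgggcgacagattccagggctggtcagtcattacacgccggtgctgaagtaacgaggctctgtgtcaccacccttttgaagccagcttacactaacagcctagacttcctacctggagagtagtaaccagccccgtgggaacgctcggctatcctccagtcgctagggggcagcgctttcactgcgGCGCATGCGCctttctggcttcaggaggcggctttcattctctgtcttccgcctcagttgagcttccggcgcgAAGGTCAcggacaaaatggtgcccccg
RefSeq windows matched 67 of the 81 nuclear subunit genes, with 72 windows in all. NRF1 sites were in 18 of the 72, beside 4.60% of all 32851 windows, and the ERR site was in 8 of the 72, beside 4.72%. A STAT motif, TTCNNNGAA, was in 6 of the 72, beside 8.30% of all windows. The core of the hypoxia response element, ACGTG or GCGTG, was in 46 of the 72, beside 43.8% of all. The motifs can overlap one another, and a match of letters is no measured binding.

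The mitochondrial genome codes for 7 subunits of complex I, 1 of complex III, 3 of complex IV and 2 of complex V. None of the 13 was called in any of the 3 comparisons of media by edgeR or DESeq2, and 0 had an unadjusted p under 0.05. The highest changes in CM against MG-CM were those of mt-Atp6 and mt-Atp8, membrane subunits of the ATP synthase. The level of mt-Atp6 was 1063, 1064 and 1171 CPM in CM-JAKi, 1054, 1244 and 1417 CPM in CM and 927, 1022 and 1083 CPM in MG-CM. CM and MG-CM overlapped, with a log2 change of 0.29 ± 0.13 (adjusted p = 0.184). For mt-Atp8 the change was 0.26 ± 0.13 (adjusted p = 0.208), and both rows were higher in CM in 3 of 3 pairs. The catalytic core of complex IV, mt-Co1, had 7847, 7485 and 7622 CPM in CM-JAKi, 6874, 8322 and 8473 CPM in CM and 7123, 7739 and 7608 CPM in MG-CM. Its log2 changes were 0.08 ± 0.14 in CM against MG-CM and -0.04 ± 0.14 in CM-JAKi against CM. The other mitochondrial rows of complexes III and IV, mt-Cytb, mt-Co2 and mt-Co3, had log2 changes between -0.09 and 0.13 in these comparisons.

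Among the complex I rows mt-Nd3 was 316, 434 and 496 CPM in CM-JAKi, 243, 298 and 348 CPM in CM and 263, 411 and 399 CPM in MG-CM. CM was lowest within every replicate number, but the groups overlapped. The log2 change was 0.49 ± 0.22 in CM-JAKi against CM (adjusted p = 0.161, and 0.00684 with the block) and -0.27 ± 0.22 in CM against MG-CM (adjusted p = 0.475). The rows mt-Nd4, mt-Nd5 and mt-Nd6 were highest in MG-CM replicate 1, with 378, 404 and 59.4 CPM beside at most 204, 258 and 35.8 CPM in the other MG-CM libraries. In CM and CM-JAKi the PSC4 library did not stand apart to that degree. For mt-Nd1 the level lay between 949 and 1242 CPM and for mt-Nd2 between 229 and 352 CPM, and no comparison called them. The row mt-Nd4l overlaps mt-Nd4 in the mitochondrial genome; it was listed at 14.2, 0 and 0 CPM in CM-JAKi, 13.4, 0 and 9.81 CPM in CM and 28.8, 9.85 and 22.3 CPM in MG-CM. With exact zeros beside levels of several CPM, no fold change is given for it.

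**Figure D4:**
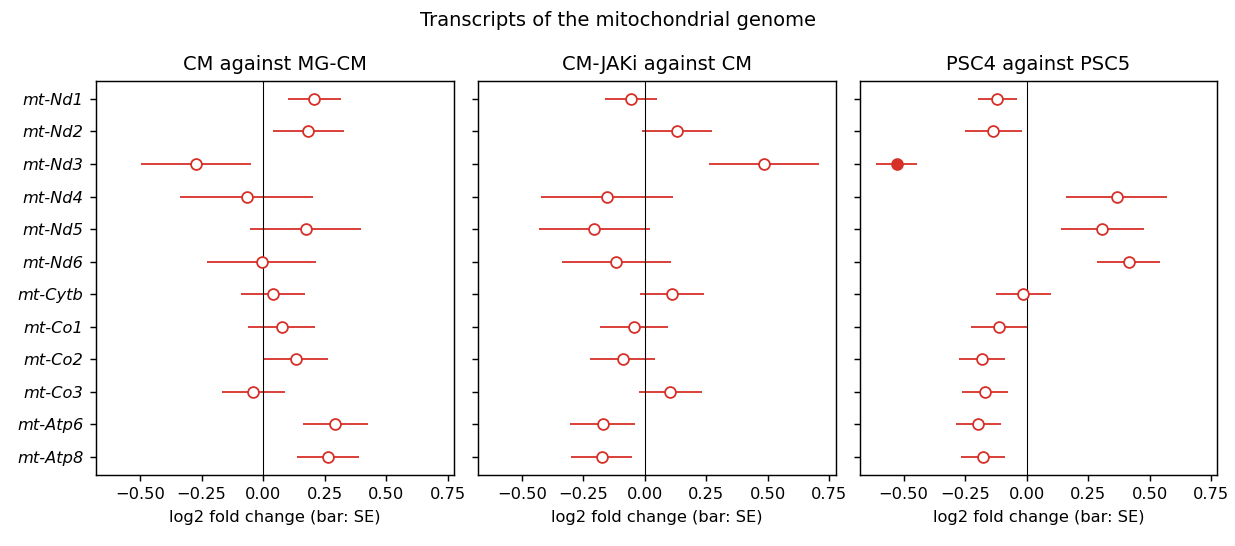
Log2 fold change with SE (x axis) of 12 protein genes of the mitochondrial genome (rows) in CM against MG-CM (left), CM-JAKi against CM (middle), PSC4 against PSC5 (right); mt-Nd4l is left out because 3 libraries list it at 0. Filled points had an adjusted p under 0.05, and mt-Nd3 in PSC4 against PSC5, at -0.53, is the only one.

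Most of the rows called between the stellate lines were lower in PSC4. In a fit with condition and line, 3 PSC4 libraries were set against 6 PSC5 libraries, and 23 of the 97 rows were lower in PSC4 and 1 was higher. Of all genes 21% were called, 10.5% higher and 10.5% lower. Of the 80 nuclear subunits 70 were on the lower side in PSC4, with a median log2 change of -0.14 beside a median near 0 for all genes. The called ones lay in complex I (13 of 36 lower), complex II (1 of 4), complex III (3 of 9) and complex V (4 of 15 lower, 1 higher). The other rows lower in PSC4 were mt-Nd3 and Atp5sl, a complex I assembly component despite its symbol. Of 16 nuclear subunits of complex IV 0 were called by edgeR, and 4 were lower at an unadjusted p under 0.05, beside 2496 of all 13613 genes.

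Named after their values were seen, Ndufa11, Uqcr10 and Atp5j show the range. Ndufa11, a membrane-arm subunit of complex I, had 40.1 CPM in PSC4 and 55.8 and 60.6 CPM in PSC5 under CM-JAKi, 31.4 against 42.7 and 46.6 CPM under CM, and 36.5 against 59.2 and 53.4 CPM under MG-CM. PSC4 was lower in each condition, with a log2 change of -0.56 ± 0.07 (adjusted p = 0.00212). Uqcr10, a small subunit of complex III, was lower by a similar size, with 40.8 to 56.6 CPM in PSC4 and 65.3 to 75.0 CPM in PSC5 (log2 change -0.51 ± 0.07, adjusted p = 0.00361). Atp5g1 had 73.2 to 78.4 CPM in PSC4 and 100.3 to 121 CPM in PSC5 (log2 change -0.51 ± 0.07, adjusted p = 0.00300), while Atp5g2 and Atp5g3, which code for the same mature subunit, were not called (adjusted p = 0.209 and 0.287). Atp5j, coupling factor 6 of the synthase, was the one higher in PSC4, with 74.8 to 86.0 CPM in PSC4 and 62.3 to 71.0 CPM in PSC5 (log2 change 0.24 ± 0.06, adjusted p = 0.0249). It overlaps Gabpa in the RefSeq annotation, a transcription factor gene that was also higher in PSC4 (log2 change 0.27 ± 0.05, adjusted p = 0.00910).

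Of the mitochondrial rows mt-Nd3 was lower in PSC4, with 243 to 316 CPM in PSC4 and 298 to 496 CPM in PSC5 (log2 change -0.53 ± 0.08, adjusted p = 0.00558). By contrast mt-Nd6, the only one coded on the light strand, had 43.0 to 59.4 CPM in PSC4 and 31.1 to 41.8 CPM in PSC5 without reaching the threshold (log2 change 0.41 ± 0.13, adjusted p = 0.0537). The count of rows lower in PSC4 was 6 without CM-JAKi replicate 1, where 3.4% of all genes were called lower, and 8 without MG-CM replicate 1, where 6.07% were. It was 13 without CM-JAKi replicate 3 or MG-CM replicate 2, and 14 without CM-JAKi replicate 2, CM replicate 3 or MG-CM replicate 3, with 6.95% to 7.96% of all genes called lower in these 5 fits. Since PSC4 was 1 line with 1 source of conditioned medium, line and source cannot be told apart in this fit of all 3 conditions. In MG-CM, the control medium, the nuclear sum was 7175 CPM in PSC4 and 8993 and 8854 CPM in PSC5. The lines were not tested within MG-CM alone. Among other mitochondrial genes, 23 of 76 mitochondrial ribosomal protein genes were lower in PSC4 and 0 higher (median log2 change -0.17; edgeR).

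**Figure D5:**
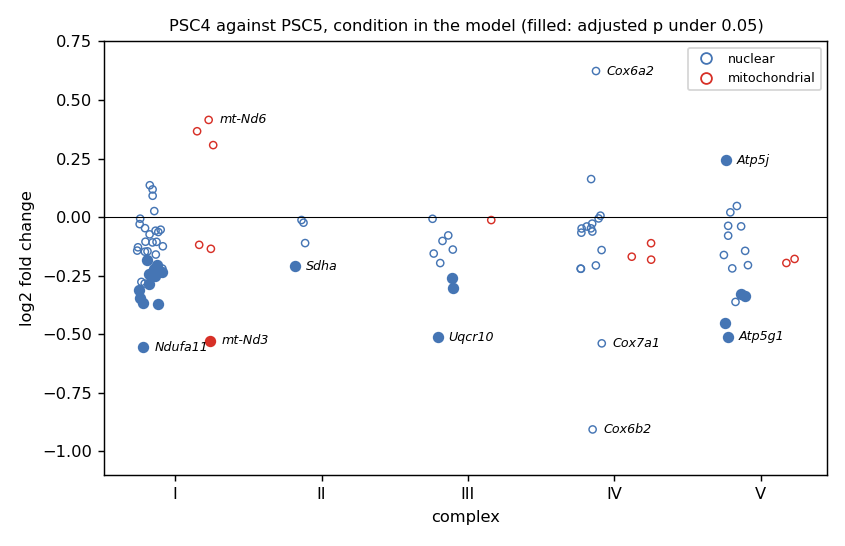
Log2 fold change of each subunit in PSC4 against PSC5 (y axis) by complex (x axis), blue for nuclear and red for mitochondrial subunits, filled where the adjusted p was under 0.05; mt-Nd4l is left out. Most nuclear subunits lie below 0, Atp5j is the only filled circle above it, and complex IV has no filled circle.

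Other mitochondrial gene lists show what moved around the subunits in the media comparisons, with a rise or fall in CM given against MG-CM and one in CM-JAKi against CM. Of all genes edgeR called 10.2% in CM against MG-CM and 19% in CM-JAKi against CM, and the block fit 24.4% and 34.2%. In CM-JAKi against MG-CM these shares were 1.01% and 4.25%. The counts for the lists below stand beside these shares. Of 20 genes linked to the hypoxic switch of respiration, a list that includes Ndufa4l2 and Cox4i2, 8 rose and 0 fell in CM against MG-CM, and 0 rose and 12 fell in CM-JAKi against CM. Their median log2 change was 0.95 and -1.09, and the block fit called 13 and 14. The direction of hypoxia genes in these libraries was known when the list was chosen, so it is no independent support. Hif1a, the oxygen-regulated subunit of HIF-1, rose by 1.45 ± 0.25 (adjusted p = 0.0137) and fell by 1.65 ± 0.25 (adjusted p = 0.00443). In CM-JAKi against MG-CM 0 of the 20 were called by edgeR or by the block fit.

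Genes that feed or build the chain changed singly. Of 24 genes of the citric acid cycle and pyruvate entry, 2 rose and 3 fell in CM against MG-CM, and 4 rose and 2 fell in CM-JAKi against CM. The block fit gave 2 and 5, then 6 and 4. Pdk1 and Pdk2, kinases that switch off pyruvate dehydrogenase, moved in opposite directions in CM-JAKi against CM: Pdk1 fell by 2.45 ± 0.43 (adjusted p = 0.00736) and Pdk2 rose by 1.48 ± 0.21 (adjusted p = 0.00351). The mitochondrial isocitrate dehydrogenase Idh2 fell by 0.65 ± 0.10 in CM against MG-CM (adjusted p = 0.00990) and rose by 0.66 ± 0.10 in CM-JAKi against CM (adjusted p = 0.00354). Of 28 assembly factors 3 rose and 1 fell in CM, and 1 rose and 1 fell in CM-JAKi, where the block fit gave 4 and 2, then 4 and 3. Cox17, a copper chaperone of complex IV, rose by 0.47 ± 0.11 in CM (adjusted p = 0.0268), while Cox19, also needed for complex IV assembly, fell by 0.43 ± 0.10 (adjusted p = 0.0268).

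Of 12 coenzyme Q genes 1 rose and 1 fell in CM against MG-CM, and 2 rose and 1 fell in CM-JAKi against CM (with the block 2 and 1, then 3 and 1). Adck3, a kinase-like protein of that pathway, fell by 1.203 ± 0.21 in CM (adjusted p = 0.0136) and rose by 1.27 ± 0.21 in CM-JAKi (adjusted p = 0.00554). Of 23 genes for upkeep and expression of mitochondrial DNA 1 rose in CM and 3 fell in CM-JAKi, and the block fit gave 3 higher and 1 lower, then 1 and 4. Tfam, which packages mitochondrial DNA and starts its transcription, rose by 0.46 ± 0.10 in CM (adjusted p = 0.0265) and fell by 0.41 ± 0.10 in CM-JAKi (adjusted p = 0.0273). Of 17 regulators of biogenesis 0 were called in CM against MG-CM by edgeR, and the block fit called 1 higher and 2 lower. Under CM-JAKi 1 rose and 3 fell (3 and 3 with the block), with the coactivator Ppargc1a higher by 1.64 ± 0.32 (adjusted p = 0.0101) and Myc lower, at -1.19 ± 0.19 (adjusted p = 0.00548). Of 20 genes for fusion, fission and turnover 1 rose and 2 fell in CM, and 3 rose and 1 fell in CM-JAKi (with the block 2 and 2, then 5 and 2). Pink1, a kinase that marks damaged mitochondria, fell by 0.62 ± 0.09 in CM (adjusted p = 0.00924) and rose by 0.68 ± 0.09 in CM-JAKi (adjusted p = 0.00196). The receptor Bnip3 did the opposite, rising by 1.68 ± 0.33 (adjusted p = 0.0206) and falling by 1.95 ± 0.34 (adjusted p = 0.00702).

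Of 76 mitochondrial ribosomal protein genes 0 rose and 1 fell in CM against MG-CM, and 1 rose and 1 fell in CM-JAKi against CM, where the block fit gave 1 and 1, then 5 and 4. Mrps6 was the gene that fell and then the one that rose, at -0.66 ± 0.14 (adjusted p = 0.0241) and 0.61 ± 0.14 (adjusted p = 0.0192). The 10 carriers, with cytochrome c and the synthase inhibitor, had 0 called by edgeR in both comparisons; the block fit called 1 higher and 2 lower, then 2 higher and 1 lower. In CM-JAKi against MG-CM 0 genes of these lists were called by edgeR, and the block fit called 1 lower in each of the citric acid cycle and biogenesis lists.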

How the data were processed

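Total RNA, after removal of ribosomal RNA, went into stranded TruSeq libraries, per the labels' protocols. Tools named in the submitters' processing notes are STAR (2.5.1b), DESeq2 and RSEM (1.2.29), and the builds named are mm9 and NCBIM37; what each was used for is not given. The authors deposited whole numbers per gene, read here as RSEM expected counts that were rounded to whole numbers and not scaled. Counts estimated by RSEM divide reads between similar genes, so values of close paralogues and overlapping genes are less certain.

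All 9 libraries entered edgeR 4.0.16 (R 4.3.3, limma 3.58.1): filterByExpr (minimum count 10, minimum total 15), TMM, a robust quasi-likelihood fit on the group, and Benjamini-Hochberg adjustment over 13613 genes. Fold changes are log2 with SE, and p-values measure the spread between separate cultures of 2 lines. The PSC4 comparison added a term for line. DESeq2 1.42.0, RLE scaling, library size alone, no filter, the replicate block, a line term, fits of 2 groups and each library left out were alternatives. The fits were tested on simulated data. Libraries of one number share a line, per the labels. After removal of group means they correlated across genes at 0.29 to 0.68 (9 pairs, against -0.54 to 0.28 in 18 others). The numbers were therefore taken as pairs in the replicate block and in the counts per pair. The main edgeR fit and DESeq2 left the pairing out. Coding sequences come from GENCODE M21, promoter windows from RefSeq (GRCm38.p6); coordinates of the files' build are not given.

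The members and lists were chosen with earlier results of these data known. Named were members called in a medium comparison, the nuclear subunit with the smallest p per complex, isoform pairs, core subunits, mitochondrial genes, and called list genes with the smallest p. Of these, Cox8c has no row in the table.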

Additional observations from a re-analysis of the deposited data

How the results depend on the processing

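Of 97 rows, those called higher in CM against MG-CM numbered 2, and 4 by DESeq2. Those called lower numbered 0, and 3 by DESeq2 or with library size alone, and 8 with the replicate block or the cell line term. Of all genes DESeq2 called 17.2% in either direction and 8.94% lower. Library size alone called 6.52% lower, the replicate block 12.8% and the cell line term 12.2%. In CM-JAKi against CM 3 were higher. The count was 8 by DESeq2, 15 with library size alone, and 24 with the replicate block or the cell line term. It was 1 without the low-count filter or with only the groups compared. In both directions DESeq2 called 11 rows, beside 23.8% of all genes, and library size alone 18, beside 20%. Without the filter or with only the groups compared it was 4 rows, beside 13.6% and 12.3%. The replicate block and the cell line term called 27 rows each, beside 34.2% and 33.3%. In PSC4 against PSC5 DESeq2 called 2 higher in place of 1, and 30 rows in all, beside 24.3% of all genes. The nuclear median in CM-JAKi against CM was 0.193 with library size alone, beside 0.103 for all genes.

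With each library left out in turn, rows called in CM against MG-CM numbered 0 to 3 higher and 0 to 1 lower. Of all genes 0.949% to 10.5% were called there. In CM-JAKi against CM the rows numbered 1 to 3 higher and 1 to 3 lower, beside 7.2% to 19% of all genes called. In CM-JAKi against MG-CM they stayed at 0, beside 0.232% to 1.34%. In PSC4 against PSC5 they numbered 0 to 2 higher and 6 to 31 lower, beside 3.4% to 10.9% of all genes called lower. The medians ranged from -0.17 to -0.0086 (nuclear) and 0.02 to 0.16 (mitochondrial) in CM against MG-CM, from 0.055 to 0.15 and -0.12 to -0.03 in CM-JAKi against CM, and from -0.04 to 0.09 and 0.027 to 0.10 in CM-JAKi against MG-CM. The cause of these shifts was not tested.

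For 129 changes of the 43 genes named among the rows under 16 alternatives, 49 gained a call, 36 lost one, 0 reversed a called direction and 1978 kept theirs. Beyond the calls given with the results, the replicate block changed no call of these 43 genes. Low isoforms rest on few counts per library.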
